A study of Mus musculus with 4 samples.

Results

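Collagen chain genes were examined in regenerating mouse liver, as all probe sets whose single gene symbol in the platform annotation has the form Col, number, a, number. The rule took 82 probe sets of 45101 on the array, which named 42 genes of 18193. Single-colour Affymetrix arrays gave 4 signals for each, 2 in the OGFRL1 group and 2 in the EGFP group. Both groups were nude BALB/c nu/nu mice, which lack mature T cells, and both had received 23 doses of 0.25 ml/kg carbon tetrachloride, a liver toxin whose repeated use leads to fibrosis. Both then had 1000000 human bone marrow mesenchymal stem cells injected into the spleen, carrying OGFRL1 in one group and the green fluorescent protein EGFP as the control in the other. On day 21 part of the liver was removed by partial hepatectomy, and the samples are liver collected 8 days later. No animal without cells or without the toxin is among the groups, so the values compare OGFRL1 with EGFP within injured, transplanted and resected liver. Whether 2 arrays of a group stand for 2 mice is not in the labels. Each p-value therefore sets a difference against spread between arrays, which may be technical in part. The probe sets are for mouse transcripts, and whether any bound human transcripts from the transplanted cells was not tested.

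Collagens, most of them secreted, are trimers of chains wound into a triple helix, and each chain is encoded by its own gene. Fibrillar types such as I, III and V form the tension-bearing fibres of a scar, type IV forms the sheet of basement membranes, type VI forms beaded filaments, and the FACIT types decorate fibril surfaces. In injured liver, fibrillar collagen comes mainly from activated stellate cells and portal fibroblasts, and the balance of its synthesis and breakdown sets how far fibrosis builds up or resolves.

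Most collagen genes with a measurable signal were brighter in OGFRL1 livers, but none passed the threshold in the fit of 1 probe set a gene. Of the 42 genes, 21 had a brightest probe set with a mean signal of at least 11.6, the median over the array, and were tested; the other 21 were below it. Of the 21 tested genes, 16 (76.2%) had a higher mean in OGFRL1 livers on the log2 scale and 5 a lower one, where 55.6% of all 11942 genes tested were higher. The median log2 fold change was 0.54 over the collagen genes and 0.042 over all genes tested. With limma and Benjamini-Hochberg adjustment over all genes at a threshold of 0.05, 0 of the 21 collagen genes were called, against 0.511% of all genes. Without EGFP array 1, 3 were called where 5.18% of all genes were, and without EGFP array 2, 4 were called where 7.17% of all genes were. Such a fit has 1 array in a group and takes its spread from the other group's pair, assuming that the lone array varies alike. At an unadjusted p under 0.05, 9 collagen genes were higher and 1 was lower, against backgrounds of 9.01% and 6.28%. Both OGFRL1 arrays lay above both EGFP arrays for 12 of the 21, where 27% of all genes did so, and below for 2, where 20.5% did so. All 21 had a mean of at least the filter in each group. Spike-in controls were lower on the OGFRL1 arrays, by a mean of -0.43 on the log2 scale over 4 Cre probe sets and -0.32 over 14 BioB, BioC and BioD probe sets; their part in the differences of any gene was not tested. In tissue RNA, fewer cells of a type and less RNA per cell cannot be told apart, and this holds for every difference below.

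**Figure D1:**
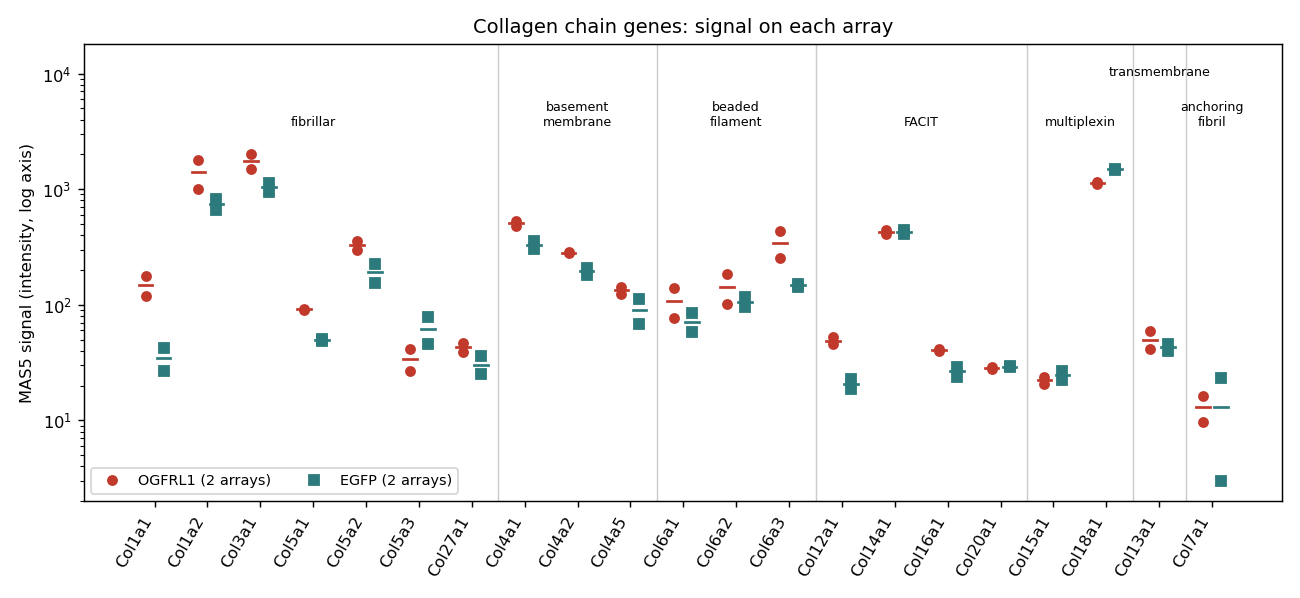
Signal of each tested collagen gene on each array, on a log axis; circles are the 2 OGFRL1 arrays, squares the 2 EGFP arrays and short bars the group means. Both OGFRL1 arrays lie above both EGFP arrays for 12 of the 21 genes, among them Col1a1, Col5a1, Col6a3 and Col12a1. The groups coincide for Col14a1, and are turned the other way for Col5a3 and Col18a1.

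The promoters of members that differed in the same direction are shown so that their start regions can be compared, with Col18a1 as a bright member that differed the other way. Sequences are from RefSeq, build GRCm38.p6, and each is the 120 bases just before the annotated start, written 5′ to 3′ on the gene's own strand. Capitals mark matches, on both strands, to the letters TATAAA of many start regions, to CCAAT, which the factor NF-Y can bind, and to GGGCGG, known as the GC box.
Col1a2, chr6:4505498-4505617, plus strand: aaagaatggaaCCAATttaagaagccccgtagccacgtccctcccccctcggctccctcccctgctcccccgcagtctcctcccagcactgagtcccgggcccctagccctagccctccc
Col3a1, chr1:45311418-45311537, plus strand: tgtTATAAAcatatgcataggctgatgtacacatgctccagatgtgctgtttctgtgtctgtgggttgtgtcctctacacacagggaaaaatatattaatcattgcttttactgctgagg
Col5a1, chr2:27886305-27886424, plus strand: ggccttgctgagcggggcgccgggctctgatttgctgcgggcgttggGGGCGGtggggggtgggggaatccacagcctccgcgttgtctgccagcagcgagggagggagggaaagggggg
Col6a3, chr1:90843972-90844091, minus strand: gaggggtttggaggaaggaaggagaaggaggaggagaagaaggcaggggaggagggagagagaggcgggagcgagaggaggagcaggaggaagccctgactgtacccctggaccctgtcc
Col18a1, chr10:77166531-77166650, minus strand: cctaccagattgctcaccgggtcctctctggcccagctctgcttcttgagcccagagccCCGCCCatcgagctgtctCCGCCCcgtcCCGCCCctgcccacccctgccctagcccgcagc

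The windows differed widely in base content. Col3a1 had a G and C content of 35.2% over the 250 bases before its start, while Col5a1 had 76.4%. Over these 250 bases, Col1a2 held CCAAT 109 bases before its start and 2 GC boxes farther out than the bases printed, and Col5a1 held 2 GC boxes. Col6a3 held none of the letters in capitals. All 4 shown genes that were higher in OGFRL1 livers held CAGAC, the core of the SMAD box, on either strand, and the printed start of Col18a1 did not. The windows not shown were mixed. Among genes with higher means, Col4a2, Col7a1, Col27a1 and a Col6a2 window held CAGAC. Col4a1, Col4a5, Col6a1, Col13a1, Col16a1 and the other Col6a2 window did not. Among genes with lower means, Col20a1 held it, and Col5a3 and Col15a1 did not. Col18a1 has 2 annotated starts in the table: the one printed, chosen as the first listed, held 3 GC boxes, and the other held none of these but did hold CAGAC. RefSeq windows matched 17 of the 21 tested genes, with 19 windows in all, and Col1a1, Col5a2, Col12a1 and Col14a1 had none. Over the 250 bases before the start, 57.9% of the collagen windows held GGGCGG on either strand, against 32.7% of all 32851 windows, whose median G and C content was 52.4% against 59.6% for the collagens. CCAAT was in 42.1% against 33.8%, CAGAC in 52.6% against 42.2%, and TATAAA in 10.5% against 12.4%. These are matches of letters, given as a description.

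Several members are neighbours on their chromosome. RefSeq places Col4a1 and Col4a2 next to each other on chromosome 8 on opposite strands, and their full RefSeq windows, which reach past each start, share 78 bases. The bases before the start, as used above, are not shared. Col6a1 and Col6a2 are neighbours on chromosome 10, Col3a1 and Col5a2 on chromosome 1, and Col4a5 and Col4a6 on chromosome X. The log2 fold changes were 0.62 and 0.53 for Col4a1 and Col4a2, 0.73 and 0.79 for Col3a1 and Col5a2, and 0.54 and 0.36 for Col6a1 and Col6a2. Col4a6 was below the filter and Col4a5 was not.

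Among fibrillar collagens, 7 of 11 genes were tested and 6 of those were higher in OGFRL1 livers, with a median log2 fold change of 0.79. The summed signal of the 7 was 3082 and 4497 on the OGFRL1 arrays, against 2064 and 2233 on the EGFP arrays. Col1a1, which encodes the chain present in 2 copies in the type I trimer, had signals of 119.6 and 177 in OGFRL1 livers, against 26.8 and 42.1 in EGFP livers. Both OGFRL1 arrays were well above both EGFP arrays, a 4.0-fold difference with a log2 95% interval of 1.32 to 2.69. The adjusted p was 0.0503 (limma), just outside the threshold, and Col1a1 ranked 70 of all genes by p and 13 by size of increase. It was called after scaling to equal array medians (adjusted p = 0.0477) and with 4 times the pseudocount (adjusted p = 0.0474). With 1 array left out, where the spread comes from the other group's pair alone, the adjusted p was 0.0090 without EGFP array 1, 0.0068 without EGFP array 2, 0.262 without OGFRL1 array 1 and 0.400 without OGFRL1 array 2.

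Col1a2, which supplies the remaining chain of type I, had 998 and 1802 in OGFRL1 livers, against 822 and 659.6 in EGFP livers. The groups did not overlap, but OGFRL1 array 2 was far brighter than OGFRL1 array 1. The log2 fold change was 0.86 ± 0.28 (SE, adjusted p = 0.222), and it was 0.44 without OGFRL1 array 2. Col3a1, the single chain of type III collagen, which is laid down early in repair, had 1489 and 2004 in OGFRL1 livers, against 942 and 1140.1 in EGFP livers. Its groups did not overlap, with a log2 fold change of 0.73 ± 0.19 (adjusted p = 0.146).

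Type V collagen starts fibrils and limits their width, and its 3 chains did not all differ in the same direction. Col5a1 had 92.4 and 90.4 in OGFRL1 livers, against 48.2 and 50.3 in EGFP livers. The 2 arrays of each group were nearly equal and the groups did not overlap, at 0.85 ± 0.18 on the log2 scale (adjusted p = 0.100). Its second probe set gave 0.19. Col5a2 had 295 and 359 in OGFRL1 livers, against 153 and 227 in EGFP livers. Its groups did not overlap, at 0.79 ± 0.22 (adjusted p = 0.171), a value of 0.51 without EGFP array 1. Col5a3 had 41.8 and 26.5 in OGFRL1 livers, against 45.8 and 77.7 in EGFP livers. This chain was lower on both OGFRL1 arrays, with a log2 fold change of -0.78 ± 0.33 (adjusted p = 0.334) and an interval from -1.57 to 0.012. The value for Col5a3 was -0.42 without EGFP array 2, -0.48 without OGFRL1 array 2 and -0.46 when its probe sets were averaged.

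Col27a1, a fibrillar collagen of cartilage, had 46.6 and 39.2 in OGFRL1 livers, against 25.1 and 35.8 in EGFP livers. The lower OGFRL1 array and the higher EGFP array were close, and the log2 fold change was 0.46 ± 0.26 (adjusted p = 0.466), or 0.23 without EGFP array 1. The other fibrillar genes, Col2a1, Col11a1, Col11a2 and Col24a1, were below the filter.

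Basement membrane collagen was represented by Col4a1, Col4a2 and Col4a5, all 3 higher in OGFRL1 livers, with a median log2 fold change of 0.58. Their summed signal was 905 and 936 on the OGFRL1 arrays, against 631 and 594 on the EGFP arrays. Col4a1 and Col4a2 encode the chains of the trimer found in nearly all basement membranes, including those that line capillaries as sinusoids scar. Col4a1 had 478 and 531 in OGFRL1 livers, against 353 and 302 in EGFP livers. The groups were apart, with a log2 fold change of 0.62 ± 0.15 (adjusted p = 0.130). Col4a2 had 284 and 281 in OGFRL1 livers, against 209 and 180.1 in EGFP livers. The groups were again apart, at 0.53 ± 0.15 (adjusted p = 0.173). Col4a5, a chain of more specialised basement membranes such as that of the kidney, had 143 and 123 in OGFRL1 livers, against 68.8 and 112 in EGFP livers. Its EGFP array 2 lay close to the OGFRL1 arrays, so that the log2 fold change of 0.58 ± 0.25 (adjusted p = 0.346) was 0.24 without EGFP array 1 and 0.91 without EGFP array 2. Col4a3, Col4a4 and Col4a6 were below the filter.

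Beaded filament collagen, type VI, lies between cells and fibrils and was represented by 3 of 5 genes, all with higher means in OGFRL1 livers. Their summed signal was 431 and 758 on the OGFRL1 arrays, against 345 and 305 on the EGFP arrays, with OGFRL1 array 2 far above the rest. Col6a3, the longest type VI chain, had 252 and 434 in OGFRL1 livers, against 143 and 151 in EGFP livers. The groups did not overlap, with a log2 fold change of 1.15 ± 0.26 (adjusted p = 0.112), or 0.77 without OGFRL1 array 2. Col6a1 had 77.1 and 140.3 in OGFRL1 livers, against 85.1 and 58.1 in EGFP livers. Its groups overlapped, and the log2 fold change of 0.54 ± 0.32 (adjusted p = 0.487) was 0.13 without OGFRL1 array 2, 0.96 without OGFRL1 array 1 and 0.28 without EGFP array 2. Col6a2 had 102 and 184 in OGFRL1 livers, against 117 and 96.5 in EGFP livers. Its groups overlapped too, and the log2 fold change of 0.36 ± 0.29 (adjusted p = 0.621) was 0.77 without OGFRL1 array 1, 0.22 without EGFP array 2 and, with its sign turned, -0.059 without OGFRL1 array 2. A second, dimmer probe set of Col6a2 gave 0.64, and its groups did not overlap. Col6a4 and Col6a5 were below the filter. The median for the type was 0.54, and it ranged with the array left out between 0.13 without OGFRL1 array 2 and 0.96 without OGFRL1 array 1.

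The FACIT collagens were divided: 2 of 4 tested genes were higher in OGFRL1 livers and 2 were within their errors of 0. Col12a1, which binds type I fibrils in tissue under tension, had 45.6 and 52.2 in OGFRL1 livers, against 22.9 and 18.6 in EGFP livers. The groups were well apart, with a log2 fold change of 1.11 ± 0.25 (adjusted p = 0.111). A second Col12a1 probe set above the filter gave -0.18, with overlapping groups. Col16a1, a minor FACIT, had 39.5 and 41.5 in OGFRL1 livers, against 24 and 29.2 in EGFP livers, which did not overlap. Its log2 fold change was 0.56 ± 0.24 (adjusted p = 0.344). Col14a1, which also binds type I fibrils, was between 405 and 447 on all 4 arrays, and its log2 fold change of -0.0017 had a 95% interval from -0.33 to 0.33. Col20a1 was between 27.9 and 29.4 on all 4 arrays, with a log2 fold change of -0.031 and an interval from -0.61 to 0.55. Col9a1, Col9a2, Col9a3, Col19a1 and Col22a1 were below the filter.

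The multiplexins, which sit at the outer face of basement membranes, both had lower means in OGFRL1 livers, though Col15a1 was at 0.0015 without EGFP array 1. Col18a1, the precursor of endostatin and a collagen that hepatocytes themselves make, had 1143 and 1112 in OGFRL1 livers, against 1478 and 1501 in EGFP livers. The arrays of each group agreed closely, with a log2 fold change of -0.40 ± 0.12 (adjusted p = 0.209). Col15a1, the other multiplexin, had a log2 fold change of -0.12 with an interval from -0.78 to 0.54. The transmembrane Col13a1 had 0.19 and the anchoring fibril chain Col7a1 0.30, the second with an interval from -1.35 to 1.95. With 1 array left out both signs turned, to -0.057 for Col13a1 without OGFRL1 array 1 and to -0.72 for Col7a1 without EGFP array 2, and Col7a1 was at 1.32 without EGFP array 1. Col7a1 was also the dimmest tested member, between 2.98 and 23.1.

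**Figure D2:**
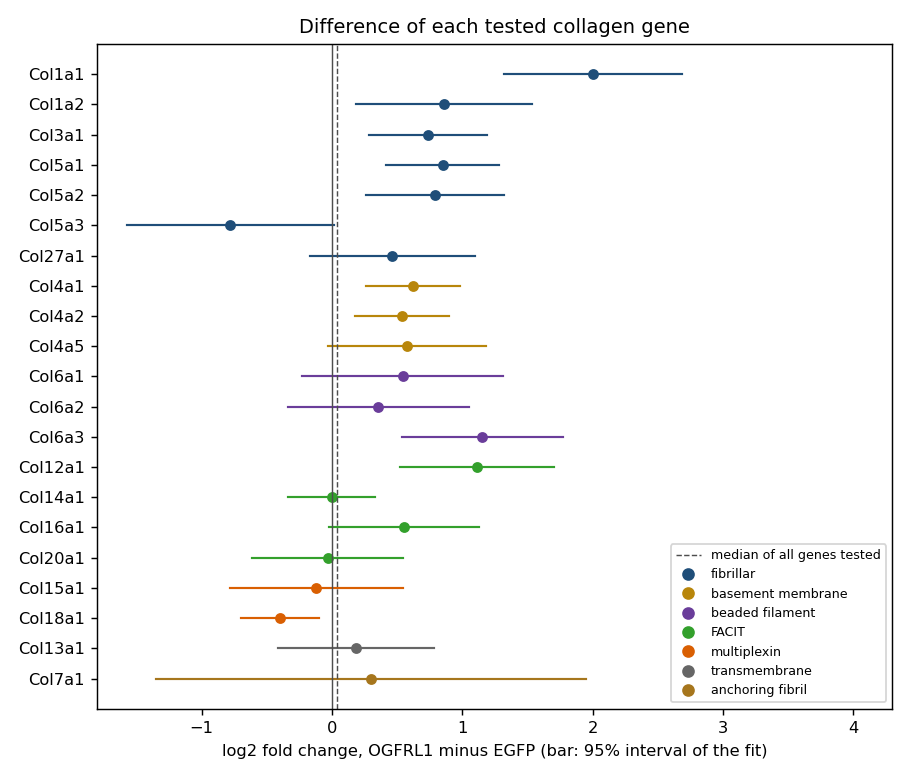
Log2 fold change, OGFRL1 minus EGFP, of each tested collagen gene, coloured by type, with the 95% interval of the limma fit; the dashed line is the median of all genes tested at 0.042. The intervals of Col1a1, Col1a2, Col3a1, Col5a1, Col5a2, Col4a1, Col4a2, Col6a3 and Col12a1 lie above 0, that of Col18a1 lies below it, and the others include it.

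The 21 genes below the filter had mean signals between 1.15 and 11.3 for their brightest probe set, and no single array exceeded 23.2. All 3 network collagens, Col8a1, Col8a2 and Col10a1, were among them, as were the transmembrane Col17a1, Col23a1 and Col25a1, and Col26a1. Network collagen therefore cannot be described from these arrays. Col22a1 lay just below the filter with a mean signal of 11.3, and Col7a1 just above it with 13.

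A gene read by several probe sets did not always give one answer. Of the 82 probe sets, 35 passed the filter, 26 of them (74.3%) were higher in OGFRL1 livers where 55% of all probe sets were, and 21 had both OGFRL1 arrays above both EGFP arrays where 25.9% did. In a limma fit of all 20238 probe sets that passed, 1 collagen probe set was called, against 0.336% of all probe sets. It was the second probe set of Col1a2, 1423110_at, which had 334 and 509 in OGFRL1 livers, against 119.9 and 137 in EGFP livers. It rose by 1.66 ± 0.22 on the log2 scale (adjusted p = 0.0497), where the brighter Col1a2 probe set gave 0.86. In that fit the Col1a1 probe set that stands for the gene had an adjusted p of 0.0533.

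Col1a1 showed the reverse order: its dimmer probe set, 1423669_at, had 64.3 and 82.6 in OGFRL1 livers, against 37.4 and 42.3 in EGFP livers, a log2 fold change of 0.82 ± 0.22 (adjusted p = 0.175) where the brighter one gave 2.0. The 4 type I probe sets above the filter thus gave values between 0.82 and 2.0, and in each of them both OGFRL1 arrays were above both EGFP arrays. The second probe set of Col3a1 had 127 and 152 in OGFRL1 livers, against 53.9 and 74.8 in EGFP livers, or 1.09 ± 0.22 (adjusted p = 0.0971). The second of Col5a1, 1434479_at, gave 0.19 where the first gave 0.85. The second of Col6a2, 1426947_x_at, had 93.1 and 124.6 in OGFRL1 livers, against 70.9 and 64.7 in EGFP livers, without overlap. Its log2 fold change was 0.64 ± 0.21 (adjusted p = 0.240) where the brighter one gave 0.36.

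Col12a1 showed the largest difference between its probe sets. Its second probe set, 1427391_a_at, had 20.1 and 27 in OGFRL1 livers, against 25.5 and 28.3 in EGFP livers, with overlapping groups and a log2 difference of -0.18 ± 0.27 (adjusted p = 0.820) where the brighter probe set gave 1.11. The mean over all 4 probe sets of Col12a1 gave 0.24. Among the 13 genes with several probe sets above the filter, 11 had the same sign in all of them, and the exceptions were Col12a1 and Col14a1, the second with values of -0.0017 and 0.0052. Col18a1 gave -0.40 and -0.36 with its 2 probe sets.

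**Figure D3:**
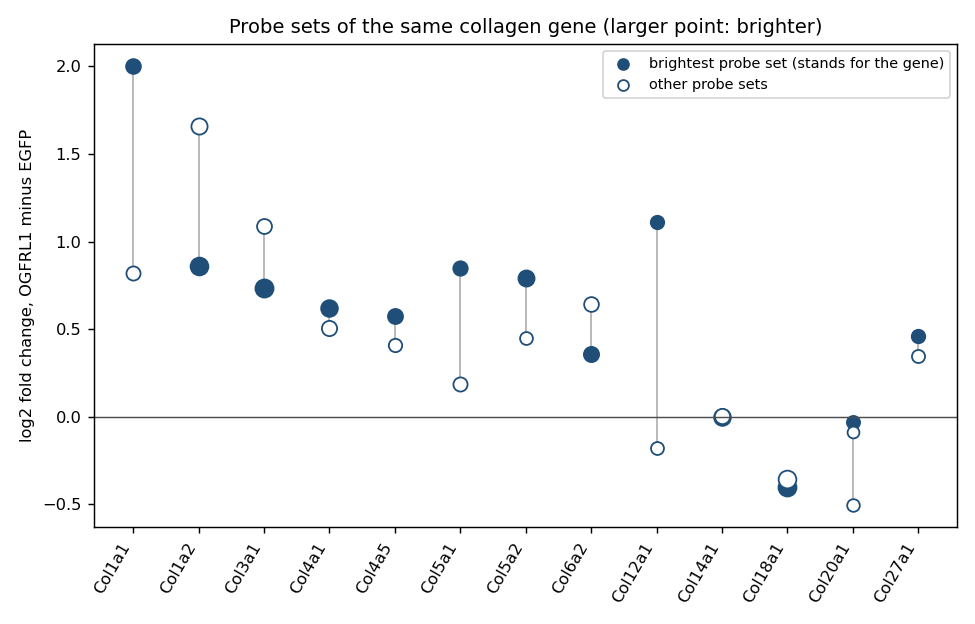
Log2 fold change, OGFRL1 minus EGFP, of every probe set above the filter for the 13 collagen genes with several; the filled point is the brightest probe set, which stands for the gene, and larger points are brighter. The distance between probe sets is largest for Col12a1 (1.29) and Col1a1 (1.18) and under 0.15 for Col4a1, Col14a1, Col18a1 and Col27a1.

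Chains that assemble in the same trimer were compared within each array, as differences between groups of a log2 ratio. The log2 signal of Col1a1 minus that of Col1a2 averaged -3.17 in OGFRL1 livers and -4.31 in EGFP livers, a shift of 1.14 with both OGFRL1 arrays above both EGFP arrays. This shift rests on the probe sets chosen, since the dimmer probe sets of the 2 genes differ in the opposite order. Col4a1 minus Col4a2 averaged 0.83 in OGFRL1 livers and 0.74 in EGFP livers, a shift of 0.085 with overlapping groups. Col5a1 minus Col5a2 shifted by 0.058, also with overlap, and Col6a1 minus Col6a2 shifted by 0.19 without overlap. The shift of Col6a1 minus Col6a2 also rests on the probe set chosen. The dimmer Col6a2 probe set gave a log2 fold change of 0.64, above the 0.54 of Col6a1, where the brighter one gave 0.36. Col6a3 minus Col6a1 averaged 1.64 in OGFRL1 livers and 1.03 in EGFP livers, a shift of 0.61 without overlap. With 2 arrays against 2, the smallest p that a 2-sided exact permutation test can give is 0.333, so none of these 5 shifts could pass a threshold of 0.05, and the exact p was 0.333, 0.667, 1, 0.333 and 0.333 in the order given.

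**Figure D4:**
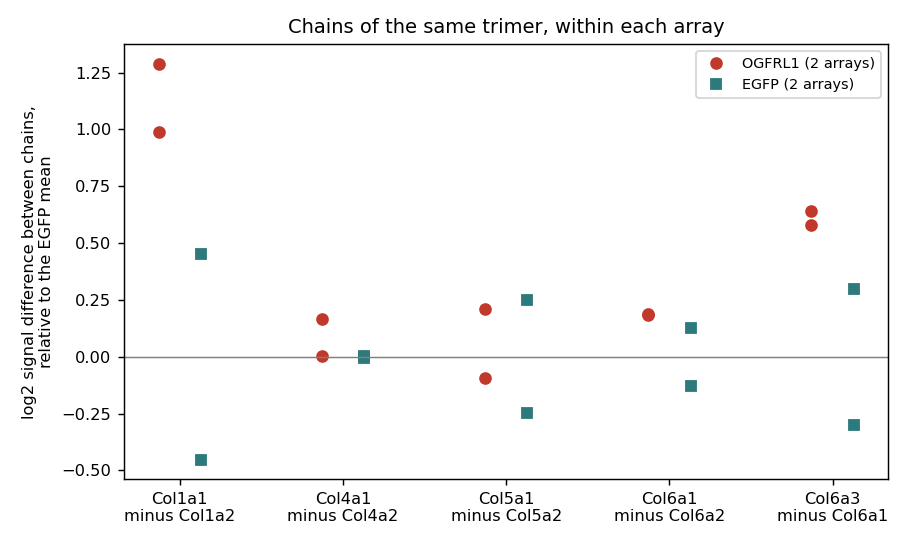
Log2 signal difference between 2 chains of the same collagen type within each array, relative to the EGFP mean of that pair; circles are OGFRL1 arrays and squares EGFP arrays. Col1a1 minus Col1a2, Col6a3 minus Col6a1 and, by less, Col6a1 minus Col6a2 are shifted up on both OGFRL1 arrays, while Col4a1 minus Col4a2 and Col5a1 minus Col5a2 overlap between groups. Each chain is read by its brightest probe set.

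The genes that fold, process, crosslink, bind and degrade collagen were read in the same fit, list by list. Over all genes tested, 55.6% were higher, 0.511% were called, and 9.01% were higher at an unadjusted p under 0.05, and the counts below stand beside these shares. A member whose EGFP mean was under the filter passed only through its OGFRL1 signal and is left out of its list's count and median. Of those for folding and modification, 11 of 18 tested were higher in OGFRL1 livers, with a median log2 fold change of 0.28 and 0 called (4 at an unadjusted p under 0.05), a share of higher genes near that over all genes. Crtap, part of the prolyl 3-hydroxylase complex, had 0.48 ± 0.14 (adjusted p = 0.195), the isomerases Fkbp7 and Fkbp14 both had 0.51, and Plod2, the lysyl hydroxylase that directs stable crosslinks, had 0.77 ± 0.30 (adjusted p = 0.289). The collagen chaperone Serpinh1, chosen after its values were seen, had 139 and 163 in OGFRL1 livers, against 131 and 85.0 in EGFP livers, a log2 fold change of 0.50 ± 0.24 (adjusted p = 0.383). The prolyl 4-hydroxylase subunits P4ha1 and P4ha2, also chosen so, were at -0.057 and 0.024.

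For secretion and propeptide removal, 4 of 10 tested genes were higher, the median was -0.058 and 0 were called (1 at an unadjusted p under 0.05). Pcolce, which speeds removal of the C-terminal propeptide, stood apart from its list with 423 and 514 in OGFRL1 livers, against 194 and 306 in EGFP livers (0.93 ± 0.24, adjusted p = 0.146). The secretory coat gene Sec24d had -0.38 ± 0.19, the export receptor Mia3 -0.24 ± 0.13 and its partner Ctage5 -0.17 ± 0.14. Of 4 tested crosslinking genes, Lox passed only through OGFRL1, and the other 3 were higher with a median of 0.43 and 0 called (1 of the 4 at an unadjusted p under 0.05). The transglutaminase Tgm2 had 0.43 ± 0.13 (adjusted p = 0.209), and the lysyl oxidases Loxl1, Lox and Loxl3 had 0.75, 0.87 and 0.18. Lox was dim, with 13.6 and 29.3 in OGFRL1 livers, against 15.8 and 5.16 in EGFP livers, and its groups overlapped.

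Fibril-binding proteins had 11 tested genes, of which Fmod, Ogn and Thbs1 passed only through OGFRL1. Of the other 8, 6 were higher with a median of 0.28, and 0 of the 11 were called (1 at an unadjusted p under 0.05). Lum was at 0.59 ± 0.22, Postn at 0.36 ± 0.16 and Bgn at 0.34 ± 0.16. Collagen receptors had 6 of 8 higher, a median of 0.16 and 0 called (1 at an unadjusted p under 0.05). Ddr1, a receptor tyrosine kinase of epithelial cells that collagen activates, had 808 and 747 in OGFRL1 livers, against 295 and 496 in EGFP livers (1.02 ± 0.24, adjusted p = 0.129). Its mesenchymal relative Ddr2, chosen after its values were seen, had 0.020 ± 0.23, while the endocytic receptors Mrc2 and Mrc1 had 0.45 and 0.26, and Cd44 had 0.30.

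Genes of collagen breakdown had 9 tested members, of which Mmp8 and Mmp9 passed only through OGFRL1. Of the other 7, 5 were higher with a median of 0.34, and 0 of the 9 were called (0 at an unadjusted p under 0.05), with Mmp2 at 0.40, Mmp14 at 0.34, Ctsk at 0.55 and Ctsl at -0.35. Of 5 tested inhibitors of breakdown, Timp4 passed only through OGFRL1. The other 4 were higher with a median of 0.57 and 0 called (1 of the 5 at an unadjusted p under 0.05). Timp3 was at 0.54 ± 0.17 (adjusted p = 0.209), Timp2 at 0.61 ± 0.26, Timp1 at 0.79 ± 0.43 and Reck at 0.45 ± 0.25. The Timp1 groups overlapped, with 38.4 and 68.4 in OGFRL1 livers, against 43.0 and 18.2 in EGFP livers. Basement membrane partners of type IV collagen had 14 tested members, of which Lama4 passed only through OGFRL1. Of the other 13, 10 were higher with a median of 0.24, and 1 was called, against 0.511% of all genes. That gene was Nid1, nidogen, which links laminin to type IV collagen: it rose to 1222 and 934 in OGFRL1 livers, against 426 and 377 in EGFP livers, by 1.41 ± 0.17 on the log2 scale (adjusted p = 0.0433). Sparcl1 had 0.64 ± 0.17, Lama2 0.67 ± 0.37 and Hspg2, perlecan, -0.29 ± 0.17. The Nid1 call was lost after quantile normalization, without a filter, without either OGFRL1 array, and in 3 more of the 13 alternatives.

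**Figure D5:**
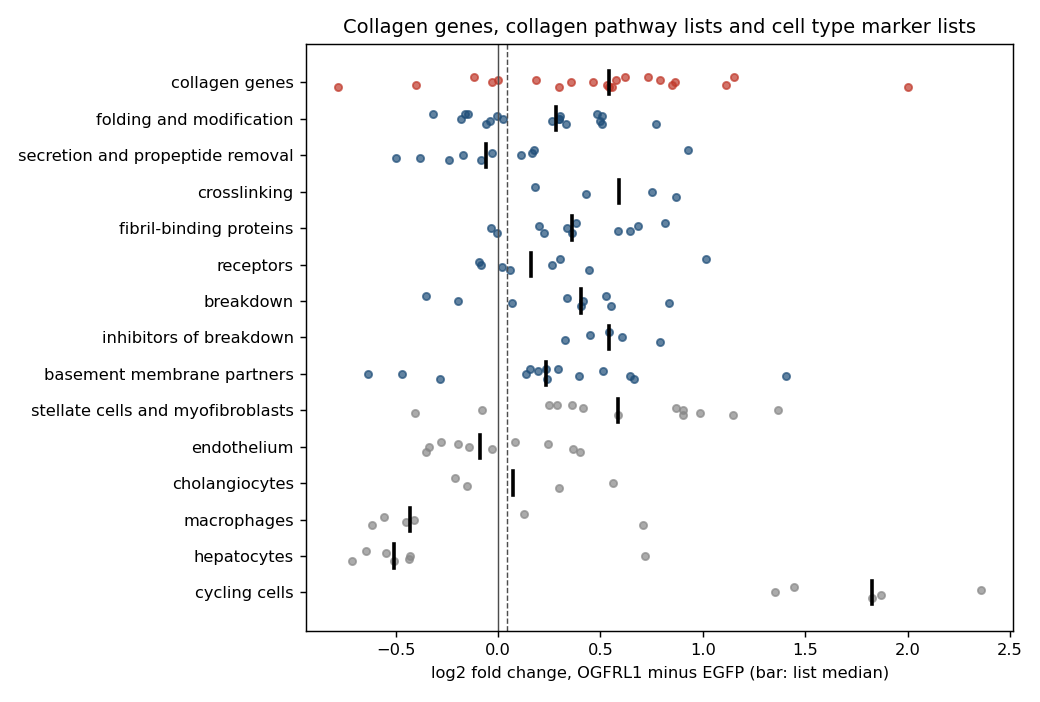
Log2 fold change, OGFRL1 minus EGFP, of each tested gene of the collagen chains (top), the collagen pathway lists and the cell type marker lists. Short black bars are medians over all tested members, and the dashed line is the median of all genes tested. Unlike the medians in the text, the bars include members that passed only through OGFRL1. They stand at 0.59 for crosslinking, 0.36 for fibril-binding proteins, 0.40 for breakdown and 0.54 for inhibitors of breakdown. The stellate cell and cycling lists lie to the right as the collagens do, with medians of 0.59 and 1.83, and so do the crosslinking and inhibitor lists. Hepatocyte markers lie to the left at -0.51, and macrophage markers at -0.43. Lum and Postn are in both the stellate cell and the fibril-binding list.

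Markers of cell types were read in the same fit, and members were called in the cycling list only. Hepatocyte markers, which check the liver label, had 7 tested members, with albumin, Alb, at 7041 and 7930.4 in OGFRL1 livers, against 16107 and 9313 in EGFP livers. The 13 stellate cell and myofibroblast markers were all tested, 11 were higher and 0 were called (limma). At an unadjusted p under 0.05, 6 were higher, where 9.01% of all genes were. The summed signal of the 13 was 3710.1 and 4308 on the OGFRL1 arrays, against 2985 and 2866 on the EGFP arrays. Acta2 and Tagln had log2 fold changes of 1.15 ± 0.20 (adjusted p = 0.0684) and 1.37 ± 0.28 (adjusted p = 0.100). Vim and Pdgfrb had 0.90 ± 0.16 (adjusted p = 0.0684) and 0.99 ± 0.20 (adjusted p = 0.0963). Lrat, a marker of quiescent stellate cells, had -0.077 and Rgs5 -0.40. Endothelial markers summed to 1562 and 1658 on the OGFRL1 arrays, against 1781 and 1679.8 on the EGFP arrays, with 4 of 10 higher, a median of -0.087 and 0 at an unadjusted p under 0.05 (limma). Cholangiocyte markers summed to 102 and 109 on the OGFRL1 arrays, against 108 and 108 on the EGFP arrays, with 2 of 4 higher, of which Krt7 passed only through OGFRL1. Macrophage markers were uneven within groups, at 2777 and 4633 on the OGFRL1 arrays, against 4837 and 2539 on the EGFP arrays, with 2 of 6 higher. Hepatocyte markers summed to 42254 and 46684 on the OGFRL1 arrays, against 77606 and 53992 on the EGFP arrays, with 0 called. At an unadjusted p under 0.05 (limma), 5 were lower, where 6.28% of all genes were. Only 1 of the 7 was higher. That was Ass1, whose probe set was dim, at 55.5 and 39.7 in OGFRL1 livers, against 33.4 and 22.1 in EGFP livers. Cycling markers summed to 2489 and 2985 on the OGFRL1 arrays, against 984 and 653 on the EGFP arrays, with 5 of 5 higher and Rrm2 and Birc5 called, against 0.511% of all genes. No defining marker was at 0, and Cftr alone was below the filter. The part of these markers in the collagen differences was not tested. OGFRL1 array 2 had the highest signal of the 4 for 10 of the 21 collagen genes and OGFRL1 array 1 for 5.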

How the data were processed

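The deposited files hold linear intensities, 1 for each probe set and array, which the authors made with MAS5 per the submitters' processing notes (version: not given in the sources used here). Labelling started from 100 ng of total RNA, per the labels. The deposited intensities of each array, without the lowest and highest 2%, had a mean of 100.0, so arrays were scaled as wholes; medians were 11.6 to 12.5. Of 45101 probe sets, 34945 had 1 gene symbol in the platform annotation, 932 several, 9160 none, and 64 were controls. All 82 collagen probe sets had a gene identifier in the RefSeq table, and 0 symbols needed an update.

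Before taking log2, 3.51 was added to each signal, a pseudocount at the 25th percentile of the table. Fold changes are therefore of log2(signal + pseudocount), which makes those of dim genes too small. Each gene was represented by its brightest probe set and kept at a mean of at least 11.6. The OGFRL1 minus EGFP difference was fitted in limma 3.58.1 under R 4.3.3 (intensity trend, 2-sided, 2 residual and 4.48 prior degrees of freedom). Adjusted p-values are Benjamini-Hochberg over all genes or probe sets tested. Levels are deposited signals, and errors of fold changes are standard errors. With 2 arrays a group, their number limits the precision. Tables and figures used Python 3.11.15, pandas 2.3.3, scipy 1.17.1 and matplotlib 3.10.9.

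Members, lists and tests were chosen with earlier results of these data known. Array values are given for tested fibrillar, basement membrane and beaded filament genes, and for other types if among the 15 collagen genes with the largest absolute moderated t. Other tested members have a fold change. Of each pathway list, called genes and up to 4 others by moderated t are named. Some genes of the pathway and marker lists were not analysed here. Alternatives were another normalization (quantile or equal medians), pseudocount, filter or probe set rule, no trend, the replicate number as a block, and each array left out. On simulated data of 11942 genes for this comparison, with 200 changed genes in each of 5 sets, limma called 24.8% of genes with a log2 change of 1 and 74.6% of those with 2, with 0 wrong signs and 29 unchanged genes called. The simulated spread was drawn from the prior that limma had fitted and was alike in both groups. The assumptions of the fit therefore held by design, and whether the real arrays meet them was not tested.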

Additional observations from a re-analysis of the deposited data

How the results depend on the processing

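Over 13 alternatives, the collagen genes tested were mostly higher in OGFRL1 livers in each, 15 to 17 with 1 array left out, against 16, and 18 of 21 after scaling to equal array medians. The median log2 fold change of 0.54 was 0.51 to 0.59 with 1 array left out, and 0.28 with no filter, where 42 genes were counted and 27 were higher. No collagen gene was called as reported; Col1a1 was the 1 called after scaling to equal medians, with 4 times the pseudocount and with the replicate block, and with 1 array left out 0 to 4 were called. Those were Col1a1, Col4a1 and Col12a1 without EGFP array 1, and Col1a1, Col3a1, Col4a5 and Col5a2 without EGFP array 2, in fits whose spread comes from the other group's pair alone and which called 619 and 856 of all genes. The Col1a1 adjusted p ranged from 0.0068 to 0.40. The called collagen probe set became 0 with no filter, where more probe sets were tested.

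All genes called numbered 61, and 4 after quantile normalization, 94 with 4 times the pseudocount, 21 with a stricter filter at 4 times the median, 13 as the mean over probe sets, 0 with no filter or no intensity trend (2179 and 1654 at an unadjusted p under 0.05), and 0 to 856 with 1 array left out. The 1 called pathway gene became 0 after quantile normalization, with no filter, with the stricter filter, as the mean over probe sets and without the trend, and 0 to 7 with 1 array left out. The cause was not tested.

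The sign turned for Col14a1 (0.048 with median scaling, 0.15 as the mean over probe sets, 0.068 without EGFP array 2, 0.056 without OGFRL1 array 1, lowest -0.071 without EGFP array 1), Col20a1 (0.013 with median scaling), Col15a1 (0.0015 without EGFP array 1, -0.24 without EGFP array 2), Col7a1 (-0.72 without EGFP array 2, 1.32 without EGFP array 1), Col13a1 (-0.057 without OGFRL1 array 1, 0.43 without OGFRL1 array 2) and Col6a2 (-0.059 without OGFRL1 array 2, 0.77 without OGFRL1 array 1). Of 266 comparisons of a single collagen gene with its reported value, 247 kept direction and side of the threshold.

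The labels give both groups replicates 1 and 2 without saying that a number marks a shared animal or day. Deviations from the group means of same-numbered arrays had a correlation of -0.28 over genes. With the replicate number as a block, limma called 59 genes in place of 61, and Col1a1 had an adjusted p of 0.0257.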
